A study of Caenorhabditis elegans with 2 samples.

Results

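The microRNA genes of Caenorhabditis elegans were examined for binding of RBR-2-GFP. Members were the nuclear genes annotated as microRNAs in Ensembl release 115 with a symbol of the form mir-*, let-7, lin-4 or lsy-6, counted once per locus. There were 260 such loci among 46890 annotated nuclear genes, and 1 further gene of this biotype, F39B1.3, was left out because of its symbol. A locus was called bound when the summit of a peak in the optimal list lay inside it or within 1000 bp on either side. Of the 260 loci, 105 lay inside a protein-coding gene and 155 did not. Inside genes, 73 loci were on the strand of the host and 32 on the opposite strand. Of the 155 loci called intergenic, 3 overlapped a protein-coding gene in part (mir-356.1, mir-242 and let-7).

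The study mapped RBR-2 by chromatin immunoprecipitation and sequencing (ChIP-seq) in a single group with 2 biological replicates. The animals were whole L4 hermaphrodites of strain OP195, which stably carries a transgene for RBR-2 with GFP-FLAG at its C terminus, taken 56 hours after release of starved L1 larvae. One label names an antibody against GFP and another names rbr-2, so a part played by untagged RBR-2 cannot be told apart. Because whole animals were used, binding in more cells and stronger binding in fewer cells cannot be told apart either.

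MicroRNAs are short RNAs that repress messenger RNAs with partly matching sites. Their primary transcripts are cut to hairpins by Drosha (DRSH-1) with its partner PASH-1, and the hairpins are cut by Dicer (DCR-1) to a duplex, one strand of which is loaded into an Argonaute such as ALG-1 or ALG-2. The bases at positions 2 to 8 of the mature strand, the seed, are the main determinant of target choice, and loci that share a seed are treated as a family. The KDM5 enzymes, to which RBR-2 belongs in the worm, remove methyl groups from lysine 4 of histone H3, a mark found at active promoters.

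The mature strands below carry the seeds by which the bound families are recognised. They are written 5′ to 3′ from the RefSeq WBcel235 assembly, with the seed in capitals. The let-7 family members let-7, mir-241 and mir-48 were bound, and mir-84 and mir-795 were not.
let-7 5p: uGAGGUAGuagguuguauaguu
mir-241 5p: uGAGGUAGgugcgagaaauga
mir-48 5p: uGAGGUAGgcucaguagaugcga
mir-84 5p: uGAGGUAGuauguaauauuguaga
Both loci that carry the seed of lin-4 were bound.
lin-4 5p: uCCCUGAGaccucaaguguga
mir-237 5p: uCCCUGAGaauucucgaacagcu
All 6 loci with the seed of the mir-51 family were bound, although the seed is on the 5p strand in mir-51, mir-52 and mir-53 and on the 3p strand in mir-54, mir-55 and mir-56.
mir-51 5p: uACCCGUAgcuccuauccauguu
mir-52 5p: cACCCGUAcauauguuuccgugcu
mir-53 5p: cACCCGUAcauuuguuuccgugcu
mir-54 3p: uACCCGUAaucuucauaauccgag
mir-55 3p: uACCCGUAuaaguuucugcugag
mir-56 3p: uACCCGUAauguuuccgcugag
The mir-35 family is shown for contrast, since none of its 8 loci was bound.
mir-35 3p: uCACCGGGuggaaacuagcagu

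The DNA under the summits of the 3 strongest peaks at intergenic loci is given next. It is from the plus strand of WBcel235, the RefSeq assembly of the ce11 build. Capitals mark GAGAG or its reverse complement CTCTC, and TATAAA or its reverse complement TTTATA. All of the windows hold the first motif, and those at mir-5549 and mir-241 also hold the second. None of them overlaps a protein-coding exon.
mir-5549, chrIII:6972014-6972214, plus strand: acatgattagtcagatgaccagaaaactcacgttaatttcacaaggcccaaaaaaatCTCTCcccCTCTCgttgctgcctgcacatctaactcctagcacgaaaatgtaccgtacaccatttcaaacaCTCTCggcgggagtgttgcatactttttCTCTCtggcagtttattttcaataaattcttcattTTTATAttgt
mir-241, chrV:14366616-14366816, plus strand: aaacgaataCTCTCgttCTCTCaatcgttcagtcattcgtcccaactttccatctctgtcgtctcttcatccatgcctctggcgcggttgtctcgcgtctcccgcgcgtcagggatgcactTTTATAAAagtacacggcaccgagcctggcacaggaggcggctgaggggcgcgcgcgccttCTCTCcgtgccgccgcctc
mir-8186.2, chrII:18909-19109, plus strand: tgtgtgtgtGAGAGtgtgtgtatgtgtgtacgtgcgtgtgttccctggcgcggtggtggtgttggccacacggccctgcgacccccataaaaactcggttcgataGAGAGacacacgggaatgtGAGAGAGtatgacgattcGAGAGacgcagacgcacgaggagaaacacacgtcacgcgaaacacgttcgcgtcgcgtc

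The optimal list, derived by the authors with the irreproducible discovery rate (IDR) procedure, held 3442 peaks, of which 3423 were nuclear. The pooled list, which contains weak regions and background, held 30000 regions, and the lists of replicates 1 and 2 held 26742 and 28724. Signal is the peak caller's own value for the strength of a peak, and is compared here only within a list. The lowest signal in the optimal list was 65.2 and the median 114. No read counts were in the lists, so depth is unknown and no counting error can be given for a single signal. A rank is the place of a region by signal in its own list, mitochondrial regions included. A replicate counts as strong at a peak when it has a summit within 200 bp among its own 3442 strongest regions. Peaks and loci are not replicates, and no chance test was made.

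RBR-2-GFP was bound at 49 of 260 microRNA loci (18.8%). The share was 26.7% inside protein-coding genes (28 of 105 loci) and 13.5% outside them (21 of 155). On the strand of the host it was 27.4% (20 of 73), and on the opposite strand 25% (8 of 32). For comparison, 12.3% of protein-coding genes had an optimal summit within 1000 bp of their 5′ end. A window of the median locus size held an optimal summit at 6.56% of nuclear bases, at 7.85% of bases outside protein-coding genes and at 5.8% of bases inside them. Both classes of microRNA locus were thus above the base background for their own surroundings. Other short RNA genes were bound more often or about as often in the same window, with 53.1% of tRNA genes, 39% of snoRNA genes and 19.4% of snRNA genes.

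**Figure D1:**
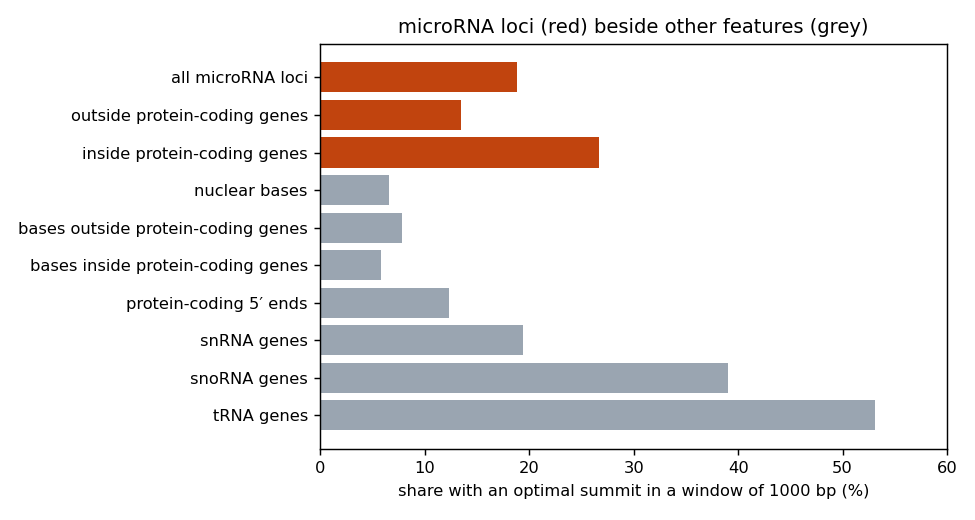
Share of features with an optimal summit in a window of 1000 bp on either side (percent, axis from 0). Red bars are microRNA loci, and grey bars are bases or other genes. MicroRNA loci inside protein-coding genes reach 26.7%, above the 5.8% of bases inside such genes and below the 53.1% of tRNA genes.

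Weaker regions were common at the remaining loci. A region of the pooled list lay in the window of 156 loci (60%), and 107 of the 260 (41.2%) had only regions below the optimal list. The background is high in that list, with 43.8% of protein-coding 5′ ends and 39.9% of nuclear base windows. No region at all was found at 104 loci (40%). Among loci inside genes 28 of 105 (26.7%) had none, compared with 76 of 155 (49%) outside.

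Both replicates were cut to the same number of regions, so alike counts of loci are partly fixed by the rule. Taken alone, the strongest 3442 regions of replicate 1 bound 46 loci, and those of replicate 2 also bound 46. A strong summit was in the window in both replicates at 41 loci (15.8%). The 49 bound loci rested on 48 distinct peaks, since 9 peaks served more than 1 locus and 14 loci had more than 1 peak. Of the 48 peaks, 38 (79.2%) were strong in both replicates, close to the 76.6% of all nuclear optimal peaks. Another 4 were strong in replicate 1 only, 5 in replicate 2 only, and 1 (at mir-73 and mir-74) in neither.

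Most of these peaks were of medium strength. Their median signal was 127, with a range from 66.6 to 560, beside a median of 114 for all nuclear optimal peaks. Intergenic loci had a median of 121 over 20 peaks, and loci inside genes 141 over 28 peaks. Only the peaks at mir-354 and at mir-54 were among the 100 strongest nuclear peaks.

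**Figure D2:**
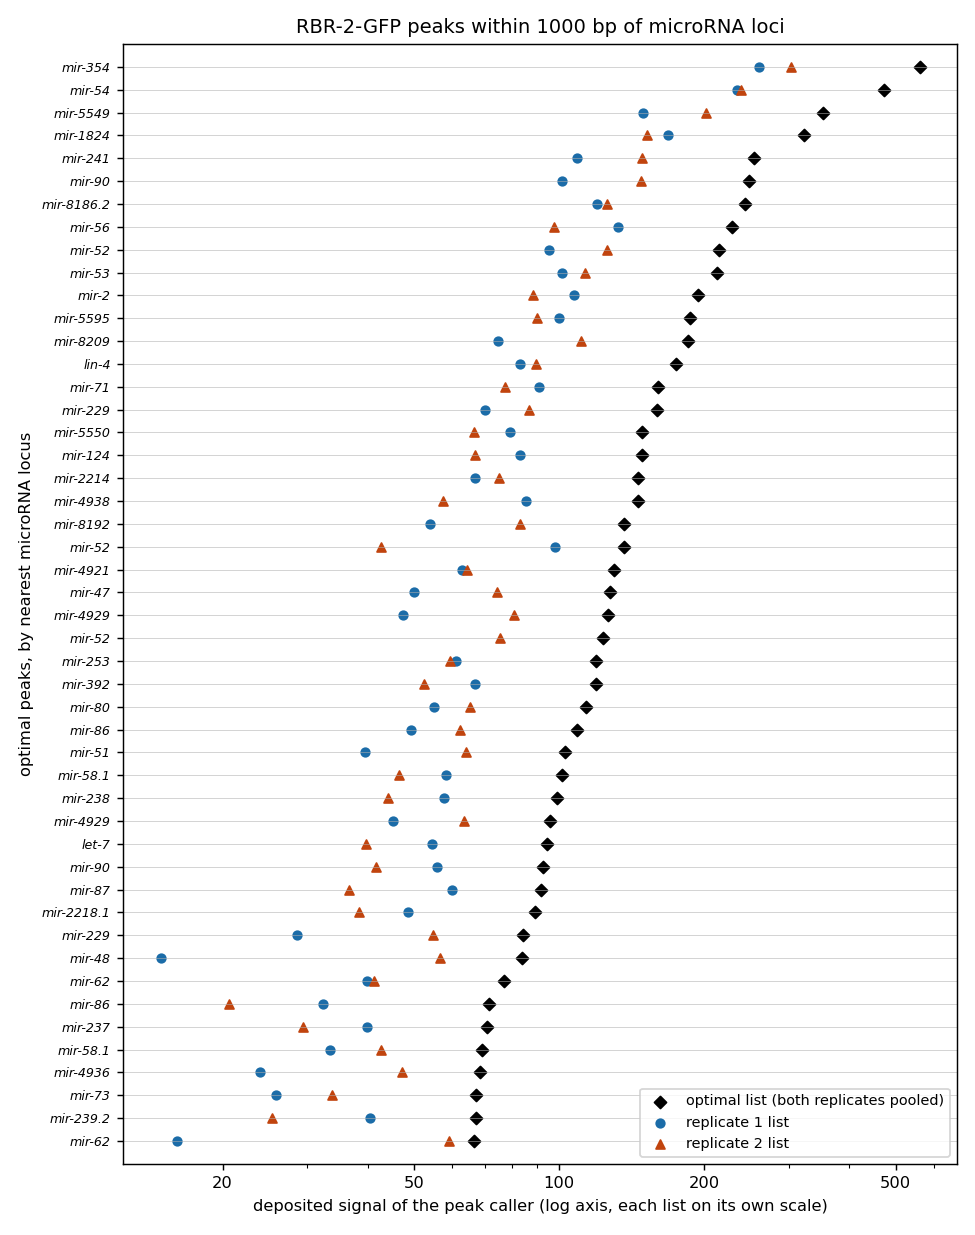
Deposited signal of the 48 optimal peaks within 1000 bp of microRNA loci (x axis, log scale), 1 line per peak, named by the nearest locus. Black diamonds are the optimal list, blue circles replicate 1 and red triangles replicate 2, each on its own scale. The replicate points lie near each other at the top and are widest apart at mir-48 and at the weaker mir-62 peak. At mir-48 they are 14.9 (rank 11815) and 56.7 (rank 1930), and at mir-62 16.1 (rank 10284) and 59.1 (rank 1810). Because the scales differ, the distance between points does not measure disagreement of the replicates. One mir-52 peak has no replicate 1 region within 200 bp.

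The summits lay mostly upstream of the hairpin. Of the 48 peaks, 34 (70.8%) were upstream of the nearest locus, 14 (29.2%) downstream and 0 inside the hairpin. The upstream summits had a median position of −286.5 bp from the hairpin 5′ end, with quartiles at −408 and −194.5 bp and a range from −855 to −25 bp. Upstream summits made up 16 of 20 peaks at intergenic loci, 15 of 21 at loci on the host strand and 3 of 7 at loci on the opposite strand. Positions are given from hairpins, and starts of primary transcripts were not determined in these data.

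By distance, 32 of 260 loci (12.3%) had an optimal summit in the 500 bp before the hairpin 5′ end and 6 (2.31%) in the 500 bp after it. The same order held for intergenic loci (14 against 1) and for loci inside genes (18 against 5). In the pooled list 93 loci (35.8%) had a region before and 47 (18.1%) after. From 500 to 1000 bp the order was the opposite, with an optimal summit at 7 loci upstream (2.69%) and 12 downstream (4.62%), and a pooled one at 41 (15.8%) and 77 (29.6%). Inside genes, the optimal summits reached 8.57 per 100 loci in the bin from 400 to 200 bp upstream. No optimal summit lay in the first 200 bp after the hairpin 5′ end in either class.

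**Figure D3:**
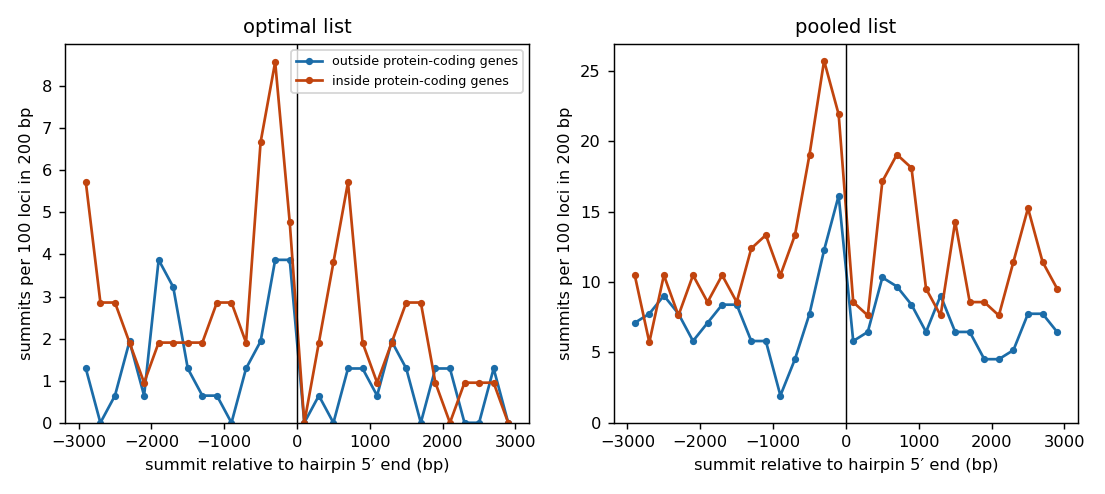
Summits per 100 loci in bins of 200 bp (y axis) against position from the hairpin 5′ end in bp (x axis, negative is upstream), for the optimal list (left) and the pooled list (right). Blue lines are the 155 loci outside protein-coding genes, red lines the 105 inside. In the optimal list the red line is highest at 8.57 just upstream of the hairpin and both lines fall to 0 just after it. The blue line also reaches 3.87 near 2000 bp upstream.

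Most of these summits were more than 500 bp from the 5′ end of any annotated protein-coding gene. A protein-coding 5′ end lay within 500 bp of 10 of the 48 summits (20.8%), compared with 1513 of 3423 (44.2%) for all nuclear optimal peaks. Of the other 38 summits, 29 (76.3%) were upstream of the hairpin. These are ends of genes. When the start of every protein-coding transcript was counted, the summits at mir-8192 and mir-5595 and the upstream ones at mir-4929 and mir-62 were also near one, which made 14 of 48 (29.2%), compared with 49.3% of all nuclear optimal peaks. Upstream summits were 25 (73.5%) of the remaining 34. Summits in introns made up 23 of 48 (47.9%), against 23.6% of all nuclear optimal peaks, and 24 (50%) lay outside protein-coding genes, against 69.1%. The rule selects windows, many of them inside host genes, so a high intron share is partly fixed by it. The single summit in an exon was at mir-253, in F44E7.5. Distances from these summits to tRNA, snoRNA and snRNA genes were not measured, although 53.1%, 39% and 19.4% of such genes were bound. A peak counted here can therefore also lie at a short RNA gene of another kind.

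**Figure D4:**
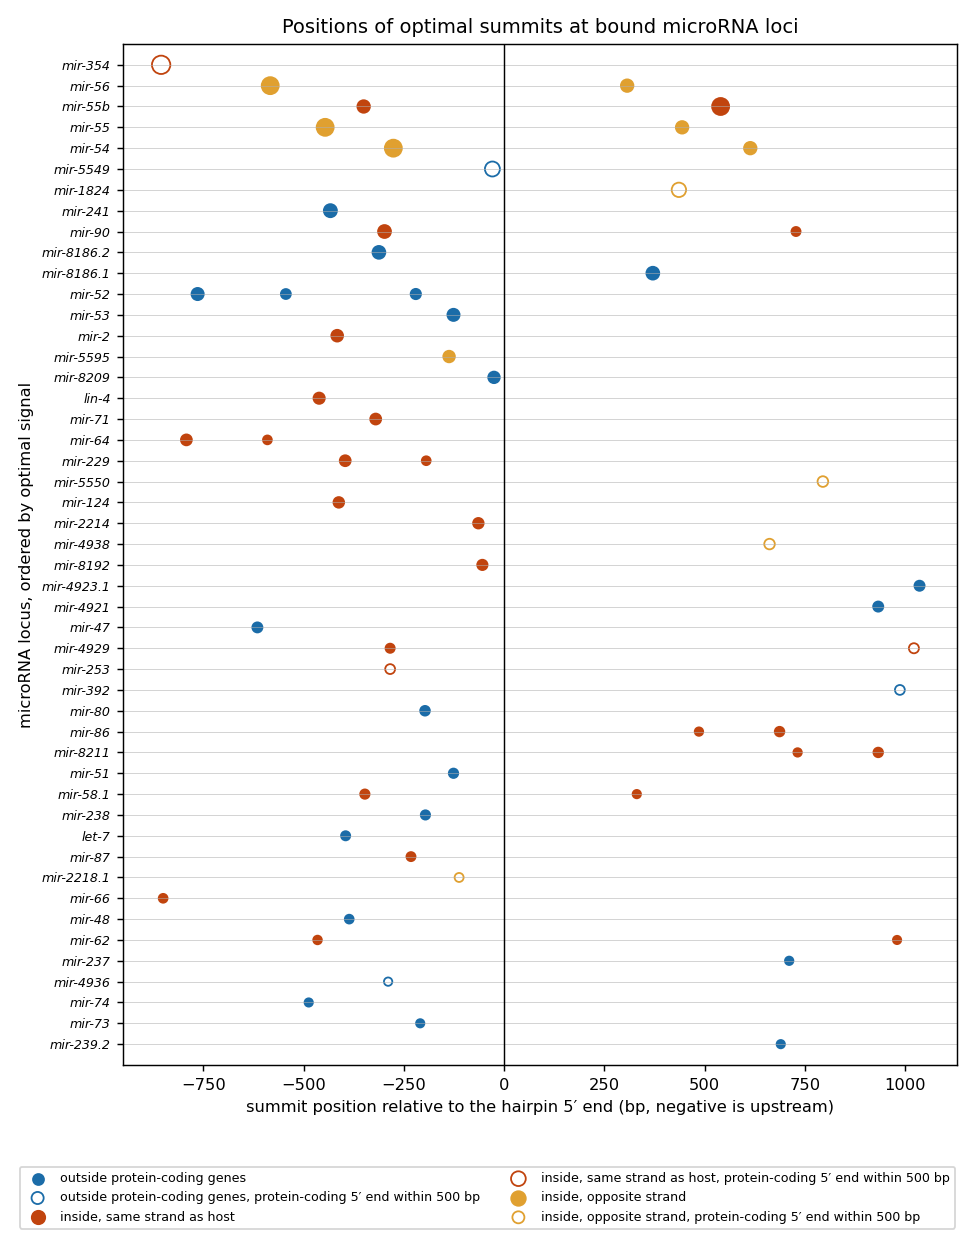
Position of each optimal summit from the hairpin 5′ end in bp (x axis, negative is upstream) at bound loci, ordered by signal, with 1 locus of the gcn-1 cluster not shown. Point size grows with signal, colour gives the place of the locus, and open points have a protein-coding 5′ end within 500 bp. Most filled points lie upstream of the hairpin, and both filled and open points lie downstream of it. Loci of a cluster share peaks and repeat them.

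The strongest peak near a microRNA lay close to protein-coding 5′ ends. Its signal was 560 (rank 75), with 260 in replicate 1 (rank 72) and 304 in replicate 2 (rank 75). The summit was 855 bp upstream of mir-354, whose host is rps-20, a gene for a protein of the small ribosomal subunit. It was within 500 bp of the 5′ ends of rps-20 and ekl-4, and that of ekl-4 was the nearest, at 154 bp. The peaks that followed at mir-5549 and mir-1824 also lay within 500 bp of protein-coding 5′ ends. At mir-5549 the signal was 352, with 149 and 201.4 in replicates 1 and 2, and the summit was 29 bp upstream of the hairpin between eef-1A.1, a translation elongation factor gene, and rfc-4, a clamp loader subunit gene. At mir-1824 the signal was 322 (169 and 152) at the 5′ ends of Y87G2A.1 and Y87G2A.18. For these 3 loci, binding at the microRNA and binding at the neighbouring promoter cannot be told apart.

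The second strongest peak had no such neighbour. It lay in F09A5.3 on chromosome X with its summit at 13145370, and its signal was 472 (rank 102). Replicate 1 gave 234 (rank 85) and replicate 2 gave 238.5 (rank 127). The summit was 276 bp upstream of mir-54, the first hairpin of a cluster with mir-55 and mir-56, and 446 and 583 bp upstream of these. A further summit at 13144480, downstream of the 3 hairpins, had a signal of 228 (132 and 97.7). The locus mir-55b on the other strand of this cluster shares both peaks.

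The mir-51 family was bound at 6 of 6 loci, in both replicates at each, through 7 peaks, beside 18.8% of all loci. The loci mir-54, mir-55 and mir-56 share their peaks, and mir-51 and mir-53 are neighbours with separate peaks. The family thus amounts to few independent sites. The family acts in the attachment of the pharynx in the embryo and is widely expressed. Beside the cluster above, mir-53 on chromosome IV had a signal of 213, with 101 and 113 in replicates 1 and 2, and a summit 126 bp upstream. Its neighbour mir-51 had 103 (39.6 and 64.1), also with the summit 126 bp upstream. The peak region before mir-52 held 3 summits, at −764, −544 and −220 bp, with signals of 215, 123 and 137. The outer summits were strong in both replicates (95.3 and 126, then 97.9 and 42.7), and the middle one had 75.3 in replicate 2 and no region within 200 bp in replicate 1. All 7 peaks were more than 500 bp from any protein-coding 5′ end.

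The heterochronic microRNAs time the larval stages, and 5 of the 6 were bound, beside 18.8% of all loci and 27.1% of those numbered up to mir-360 or named let-7, lin-4 or lsy-6. The list was chosen with earlier results of these data known. The founding member lin-4, which represses lin-14 and lin-28 early in larval life, had a signal of 175 (82.9 and 89.4 in replicates 1 and 2) and a summit 461 bp upstream of its hairpin at chromosome II, 5902254 to 5902347, inside F59G1.4. Of the let-7 family, mir-241 had the highest signal at 254 (109 and 149), with the summit 433 bp upstream. The peaks at let-7 and mir-48 were weaker. For let-7, which represses lin-41 at the passage to the adult, the signal was 94.5 (54.5 and 39.8), 395 bp upstream of the hairpin at chromosome X, 14744173 to 14744271. This summit lay within the annotated let-7 gene, which runs from 14743590 to 14745321.

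The 2 weakest heterochronic peaks rested on 1 replicate each. At mir-48 the signal was 83.5, but it was 14.9 in replicate 1 (rank 11815) and 56.7 in replicate 2 (rank 1930). At mir-237, which shares the seed of lin-4, the signal was 70.8, with 39.9 in replicate 1 (rank 2631) and 29.3 in replicate 2 (rank 4695), and the summit was 711 bp downstream. In each replicate alone 4 of the 6 loci were strong, and 3 (let-7, lin-4 and mir-241) were strong in both. The sixth, mir-84, had a pooled region of 39.3 only.

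No member of the mir-35 family had an optimal summit, beside 18.8% of all loci with one. These 8 microRNAs are abundant in embryos and are needed for embryonic development. Each had weaker pooled regions, with best signals of 46.8 at mir-35 to mir-39, 43.0 at mir-40 and mir-41, and 57.2 at mir-42. The first 7 loci are 1 cluster and share regions, so the family amounts to few independent sites. The 8 loci were strong in neither replicate.

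Of the listed mir-58 family, related to bantam of flies, 2 of the 4 loci found were bound, in both replicates, beside 18.8% of all loci. At mir-80 the signal was 114 (54.9 and 65.3 in replicates 1 and 2), 197 bp upstream. At mir-58.1, inside phkb-1, summits at −347 and 331 bp had signals of 101 (58.09 and 46.5) and 69.0 (33.4 and 42.6). The loci mir-81 and mir-82, both inside gid-2, had pooled regions of 31.0 and 41.9 only. The listed name mir-1834 matched no locus. The list is not the set of loci with 1 seed: the seed of mir-80, mir-81 and mir-82 is also carried by mir-58.2, mir-58c and mir-2209.1, so that 1 of 6 loci with it was bound, and mir-58.1 has another seed in RefSeq. The best pooled signal was 19.2 at mir-58.2 and mir-58c and 16.7 at mir-2209.1.

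In a list of 12 microRNAs that are conserved or known for a tissue, stress or ageing, 5 were bound (41.7%). All 12 are among the loci with low numbers, of which 27.1% were bound, and the share over all loci was 18.8%. The peak at mir-2, inside ppfr-1, had a signal of 194 (108 and 88.4 in replicates 1 and 2) and lay 416 bp upstream. In the same host, mir-71, which promotes long life, had 161 (91.0 and 77.2), 320 bp upstream. A peak of 149 (82.8 and 66.8) lay 412 bp upstream of mir-124, a microRNA of sensory neurons inside trpa-1. These were strong in both replicates.

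The other two were less even. At mir-86 summits 687 and 486 bp downstream had 109 (49.3 and 62.4) and 71.6 (32.3 and 20.6). At mir-87 the signal was 91.6, with 59.9 in replicate 1 (rank 1512) and 36.5 in replicate 2 (rank 3459, just past the limit). Pooled regions alone were found at mir-239.1 (54.1), mir-228 of glia (46.4), mir-1 of muscle (32.0), mir-60 of the intestine (31.4) and mir-34 (27.0). No region lay near lsy-6, which sets left-right asymmetry in a pair of taste neurons, or near mir-246.

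Mirtrons are microRNAs whose hairpin ends are made by splicing, and 1 of 4 was bound (25%). This is near the 18.8% of all loci and the 26.7% of loci inside protein-coding genes. At mir-62, inside ugt-50, a summit 465 bp upstream had 77.0 (39.9 and 41.2 in replicates 1 and 2), and one 980 bp downstream had 66.6 (16.1 and 59.1). For mir-1019 the only region had a pooled signal of 17.3, and mir-1018 and mir-1020 had none. In the annotation used, mir-1018 lay inside no protein-coding gene.

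**Figure D5:**
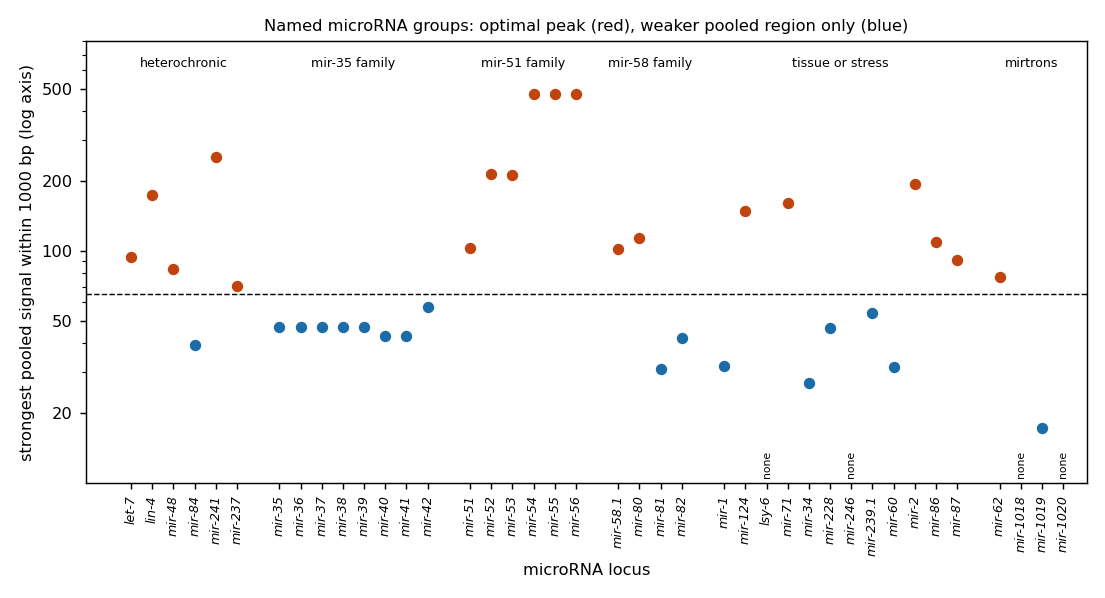
Strongest pooled signal within 1000 bp of each locus (y axis, log scale) for the named groups of microRNAs. Red points are loci with an optimal peak, blue points have a weaker pooled region only, and "none" marks loci with no region. The dashed line is the lowest signal of the optimal list, 65.2. The mir-51 family lies wholly above the line and the mir-35 family wholly below it.

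Of the remaining strong loci, mir-90 had a peak of 248 (101 and 148 in replicates 1 and 2) 298 bp upstream, inside K01F9.2, and one of 92.6 (55.7 and 41.6) 728 bp downstream. The overlapping loci mir-8186.1 and mir-8186.2, on opposite strands near the left end of chromosome II, shared a peak of 244 (120 and 126). Its summit was 529 bp from the 5′ end of gmeb-1, just past the limit of 500 bp. The peak at mir-5595, inside nurf-1, a gene for a subunit of a nucleosome remodeller, had 187 (99.8 and 90.1), and that at mir-8209 had 186 (74.6 and 111). Within gcn-1, a summit of 159 (70.3 and 86.5) lay 396 bp upstream of mir-229, and a summit of 84.2 lay 194 bp upstream. The second was strong in replicate 2 only (28.6, rank 4067, in replicate 1, and 54.8, rank 2004, in replicate 2). The cluster in gcn-1 holds 4 bound loci, which share these summits in part. Further loci complete the 25 of highest signal. At mir-2214, inside B0361.11, the signal was 146 (67.0 and 75.1) and the summit 64 bp upstream. At mir-5550, inside kgb-1, it was 149 (79.2 and 66.5), and at mir-4938 it was 146 (85.3 and 57.4), both downstream of the hairpin and within 500 bp of a protein-coding 5′ end.

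The other 15 bound loci had signals between 67.2 and 137. They include mir-238 (99.1), a neighbour of mir-80, whose summit lay 196 bp upstream. At mir-73 and mir-74 the shared peak of 67.2 had 25.8 in replicate 1 (rank 4717) and 33.8 in replicate 2 (rank 3832). At mir-239.2 the peak of 67.2 was strong in replicate 1 only (40.4 and 25.4), and at mir-4936 the peak of 68.4 in replicate 2 only (23.9 and 47.1).

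Seeds were shared by 2 or more loci in 46 cases, and 18 of these seeds had a bound locus. Each such seed stands for 2 or more loci, and the same loci can enter with a seed of each strand. Of single loci, 18.8% were bound. Only 4 had every locus bound. Beside the seeds of mir-51 and lin-4, these were both seeds of the overlapping mir-8186 pair. Members of a family often lie in 1 cluster, so such counts do not stand for independent sites.

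By chromosome, III stood highest, with 13 of 27 loci (48.1%) bound through 12 peaks. The share was 19.2% on X (14 of 73), 18.2% on I, 14.3% on V, 12.2% on II and 12% on IV. The share of bases with an optimal summit in a window of the same size was 8.29% on III and 4.46% to 8.13% on the others. The 13 loci on III include the 4 of the gcn-1 cluster, and mir-86 and mir-8211, which share both of their summits. They also include the neighbours mir-80 and mir-238, which have separate peaks.

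Loci with low numbers, those up to mir-360 together with let-7, lin-4 and lsy-6, were bound in 32 of 118 cases (27.1%). Those numbered above 360 were bound in 17 of 142 (12%), close to the 12.3% of protein-coding 5′ ends. Pairs of a locus and a peak had the summit upstream in 34 of 45 cases (75.6%) in the first set and in 9 of 19 (47.4%) in the second. The split by number was chosen after the values were seen.

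Around the summits, windows of the length printed above held GAGAG on either strand at 32 of 48 peaks (66.7%), near the 64% of all 3423 nuclear optimal peaks. TATAAA was in 12.5% against 11.2%, and CACGTG in 6.25% against 5.2%. GATAAG was in 0 of 48 windows, against 4.91% of all. The median GC content was 51.5% at microRNA loci and 45.3% over all nuclear optimal peaks. These motif counts are matches of letters, and overlapping matches in a window count once.

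The genes of the microRNA pathway and its timing targets were looked at by their 5′ ends. Of 23 listed, 22 were found (ntl-1 was not) and 4 had an optimal summit within 500 bp, beside 9.46% of all protein-coding genes. This count depended on the rule: it was 11 with a window of 1000 bp (12.3% of all protein-coding genes), 8 with the 5′ ends of all transcripts (10.3%) and 2 with the stronger 50% of the list (5.32%). The target gene lin-14, a nuclear factor that sets early larval fates, had a signal of 121 (78.1 and 50.3 in replicates 1 and 2) 137 bp upstream. The Argonaute gene alg-2 had 114 (45.5 and 72.3), 332 bp downstream of its 5′ end. For pash-1, the partner of Drosha, the signal was 99.0 (49.6 and 49.5) at −71 bp, and for ccf-1, a deadenylase subunit gene, it was 97.9 (54.1 and 41.0) at −217 bp, in a region shared with trap-4. The other Argonaute gene alg-1 and drsh-1 were among 7 with a pooled region only, at 29.8 and 33.4, and dcr-1 was among 11 with none.

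Some loci lay near the limits of the rule. The summit of 130 counted for mir-4923.1 was 976 bp from the locus, while summits of 270 and 99.5 lay 1019 bp from mir-353 and 1069 bp from mir-2221 and were not counted. Just below the signal limit, mir-2216 had a pooled region of 63.1 (19.4 and 45.5 in replicates 1 and 2), and mir-45 one of 60.7 (27.5 and 30.6). The next, of 57.2 (29.2 and 27.0), was shared by mir-42, mir-43 and mir-44. The strongest pooled regions of the 107 loci without an optimal summit had a median of 28.4 and ranged from 14.6 to 63.1. Of these 107, 58 were upstream, 41 downstream and 8 inside the hairpin.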

How the data were processed

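RBR-2-GFP ChIP-seq peaks were taken from 4 lists that the authors deposited for the ce11 build: 1 per replicate, 1 for both replicates pooled, and the optimal IDR list. The signal column the authors deposited is the caller's strength of a region. The −log10 q-value column the authors deposited had the same value in all 3442 optimal peaks, so it ranked nothing. Per the text deposited with the files, regions were called against a control and the replicate and pooled lists contain background. The aligner, the caller and the IDR threshold are not given in the sources used here, and the control reads and the ce10 lists were not analysed here. The optimal peaks came from the pooled list, so the replicate values are not an independent test of them.

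Loci and host genes came from Ensembl release 115 (WBcel235, the ce11 assembly), names and sequences from RefSeq WBcel235, to which all 260 loci matched by WormBase identifier. Positions are 1-based and distances are from the hairpin 5′ end. A locus was inside a gene when the gene contained it. Python 3.11.15, pandas 2.3.3, numpy 2.4.6 and matplotlib 3.10.9 were used. The matching was tested on simulated data: of 40 loci with planted summits, 40 were recovered in each of 20 runs. The summits were planted inside the windows of the rule, so this checks only that the matching runs correctly and does not measure false calls. The loci with full values were the 25 of highest optimal signal and the members of 6 microRNA groups. Members, lists and groups were chosen with earlier results of these data known. Alternatives were windows of 500 and 2000 bp, windows round the hairpin, interval overlap, the stronger 50% of peaks, each replicate alone, exclusion of peaks near protein-coding 5′ ends, same-strand hosts and merged loci. Mature sequences are given for selected loci, and some are not reported here.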

Additional observations from a re-analysis of the deposited data

How the results depend on the processing

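Of 55 values under alternatives, 47 stayed within 1.5 times the count reported. The window of 2000 bp raised the intergenic loci to 35 and the peaks to 75. Keeping the stronger 50% of the optimal list lowered the loci to 32, the intergenic loci to 11 and the peaks to 28. With each replicate alone, loci numbered 46 in both, intergenic loci 17, loci inside genes 29, and peaks 48 to 49. Merging loci with overlapping windows left 36 bound sites of 214, and merging overlapping hairpins, chosen after seeing the data, left 47 loci of 255. Merging thus lowered the number of sites as well as the number bound. Shares of bases were not computed under any of these alternatives, so the counts are not set against a background. Leaving out peaks within 500 bp of protein-coding 5′ ends left 40 loci. Leaving out those near the start of any protein-coding transcript, also chosen after seeing the data, left 37 loci and 34 peaks. For the pathway genes, the count of 4 became 11 with a window of 1000 bp, 8 with the 5′ ends of all transcripts and 2 in the stronger 50%, and it was 4 in each replicate alone. Peak lists carry no read depth, so how depth limits the weaker loci was not tested. No paired analysis was possible because there was 1 group and the counts come from no test.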
